A study of Caenorhabditis elegans with 12 samples.

Results

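The response of the lin-40(yth27) strain of Caenorhabditis elegans to knockdown of cco-1 was measured in 6 of the 12 libraries of the series, chosen by their labels: 3 of lin-40(yth27) animals on empty vector (EV) bacteria and 3 of lin-40(yth27) animals on bacteria written EV+cco-1, for which no mixing ratio is given. All animals had grown from hatch at 20 °C, and whole worms were collected at the L4 stage, the last larval stage before adulthood. The other 6 libraries hold the same 2 treatments in N2, the wild-type (WT) strain. The lin-40(yth27) allele is a point mutation carried by every animal of both lin-40(yth27) groups, so EV in this strain is a control for the RNAi and not for the genotype. Each library was made from many pooled whole animals, and fewer cells of a type and less RNA per cell cannot be told apart in such material. The methods of the study call its data biological replicates in general, and the sources used here do not say whether the libraries of a group came from separate cultures, so the p-values measure the spread between these samples.

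LIN-40 is a subunit of the nucleosome remodelling and deacetylase (NuRD) complex, which removes acetyl groups from histones and moves nucleosomes. The gene cco-1 codes for a subunit of cytochrome c oxidase, complex IV of the respiratory chain, which passes electrons to oxygen. In worms, its loss during larval growth is known to switch on the mitochondrial unfolded protein response (UPRmt), in which mitochondrial chaperones such as HSP-6 and HSP-60 are made under control of the factors ATFS-1 and DVE-1. Mitochondrial damage in worms is also known to raise genes of xenobiotic detoxification and innate immunity.

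Counts per gene were divided by the library total and by TMM factors, which align most genes between libraries (CPM), and 14867 genes passed the filter on low counts. In the 6 lin-40(yth27) libraries the totals were 18553449 to 22538076 counts. Replicate 3 on cco-1 RNAi stood apart, with a TMM factor of 0.796, against 0.958 to 1.10 in the other 5. The deviation of its log2 CPM from the mean of all libraries of the series fell with log2 exon length. The slope was -0.207, against -0.031 to 0.129 in the other 5. Families of short genes are therefore also given without it. Replicate 1 stood apart from replicates 2 and 3 on EV, by a chi-square of 29.7 to 30.2 for each degree of freedom against 4.40 between the latter, and all replicates differed by more than sampling noise. The cco-1 libraries differed more, at 36.8 for replicates 1 and 2, 61.5 for 1 and 3, and 35.7 for 2 and 3. The 66 tissue and gene family lists included markers of muscle, intestine, hypodermis, neurons, sperm and germ line. No marker passed with edgeR, while DESeq2 called 1 intestine marker lower and 1 sperm gene higher. The summed level of the 11 intestine markers tested was 9521 to 11224 CPM on EV and 11527 to 17083 CPM on cco-1 RNAi, a difference carried mostly by the aspartyl protease gene asp-1, which measured 6086, 5094 and 4955 CPM on EV and 6992, 7472 and 11118 CPM on cco-1 RNAi. For the other marker lists the summed levels of the groups overlapped, with 2172 to 3062 CPM on EV and 2239 to 2396 CPM on cco-1 RNAi for germ line and oocyte genes.

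The knockdown itself was seen in every library. The cco-1 transcript, which the files list under cox-5B (WBGene00000371), measured 413, 425 and 409 CPM on EV and 177, 224 and 257 CPM on cco-1 RNAi. The 2 groups did not overlap, and the level was lowest in replicate 1 and highest in replicate 3 on cco-1 RNAi. The fall had a log2 fold change of -0.92 (standard error 0.16, edgeR adjusted p = 0.0187), and it passed in 1 of the 6 fits that each left out 1 lin-40(yth27) library, the fit without cco-1 replicate 3 (adjusted p 0.0247 there and 0.0587 to 0.0991 in the others). For the genes below, the last value in parentheses gives this number of fits. In N2 the log2 fold change was -1.63. The lin-40 transcript, which the mutation leaves in place, measured 133, 101 and 100 CPM on EV and 99.4, 146 and 123 CPM on cco-1 RNAi, with groups that overlapped.

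In lin-40(yth27), 173 genes changed upon cco-1 RNAi (adjusted p under 0.05, edgeR quasi-likelihood test, which is meant below by called or passed where no other tool is named), which is 1.16% of the genes tested. Of these, 123 were up-regulated (0.827%) and 50 down-regulated (0.336%). The 3 cco-1 libraries lay above the 3 EV libraries for all 123 and below them for all 50, where the shares over all genes tested were 11.1% and 9.71%. The genes were called on these same libraries, so this separation largely follows from the choice and is no separate evidence. The up-regulated genes had a median log2 fold change of 1.09, with 68 above 1 and 26 above 2, and reached 6.53 in genes with counts on EV. The down-regulated genes had a median of -0.93 and reached -3.43, with 24 beyond -1 and 4 beyond -2. Chromosome V held 46 of the up-regulated genes (37.4%) and 16 of the down-regulated genes (32.0%), against 19.8% of the genes tested.

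**Figure D1:**
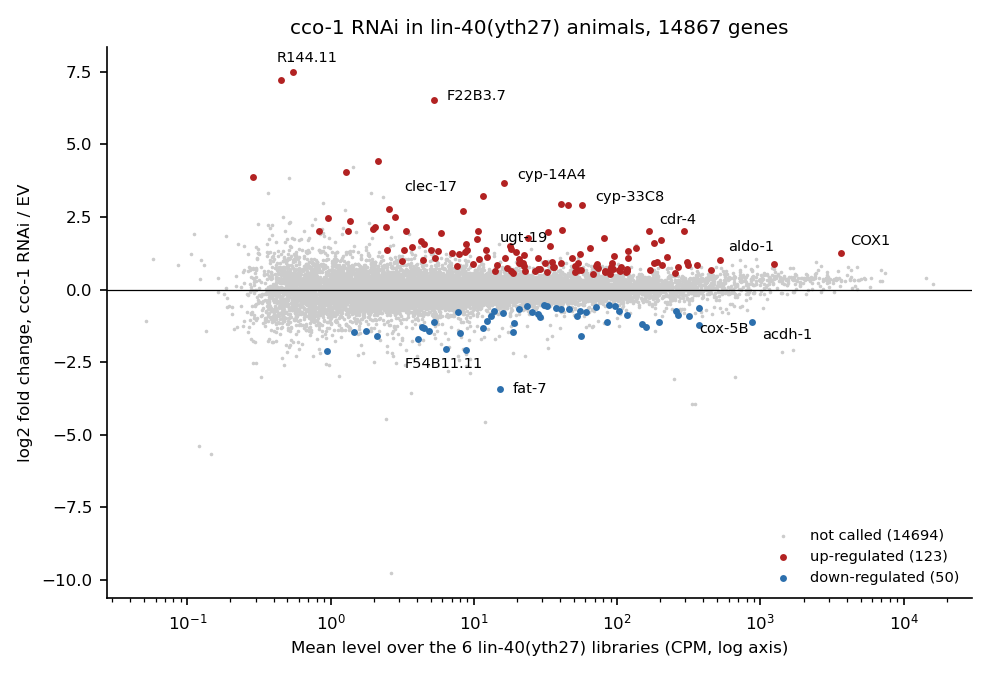
Each point is a gene, with the mean level over the 6 lin-40(yth27) libraries in CPM on a log axis and the log2 fold change of cco-1 RNAi over EV. The 123 up-regulated genes (red) lie at 0.53 or above, where the fitted positions of the 2 highest, which had no counts on EV, are not measured folds, and the 50 down-regulated genes (blue) between -0.53 and -3.43, while the 14694 genes in grey did not pass the test.

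Single libraries moved these counts. Without EV replicate 1, 2 or 3 there were 44, 27 and 26 called genes, and without cco-1 replicate 1, 2 or 3 there were 58, 95 and 55, the last with 39 up (0.258%) and 16 down (0.106%). Without N2 EV replicate 3, which enters through the shared spread, there were 114. All 6 fits that left out a lin-40(yth27) library called 20 of the up-regulated and 4 of the down-regulated genes, and none of them called 41 and 25. DESeq2 called 269 up (1.79%) and 122 down (0.813%), among them all 173. In N2, libraries of the same number on EV and cco-1 RNAi deviated together from their group means (correlations of 0.723, 0.588 and 0.288), which those of lin-40(yth27) did not. In N2, EV replicate 2 and cco-1 replicate 3, of different number, also correlated at 0.323, so the pairing is unclear for replicate 3. A fit with a replicate block in N2 alone, chosen after seeing the data, called 227 up (1.53%) and 163 down (1.10%) in lin-40(yth27), among them all 173. The block enters the lin-40(yth27) comparison through the shared spread alone. Scaled by library totals, the split was 48 up and 51 down, since the median over all genes tested moved from -0.03 to -0.18. Relative to that median the families below kept their directions.

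Genes of xenobiotic metabolism were prominent among the up-regulated genes. Of 57 cytochrome P450 genes tested, enzymes that oxidise foreign compounds and lipids, 5 rose and 1 fell, and of 62 UDP-glucuronosyltransferase (UGT) genes, whose products attach sugars to such compounds, 5 rose and 1 fell. The shares of all genes tested were 0.827% and 0.336%. At an unadjusted p under 0.05, 12 P450 genes were higher and 7 lower, and 12 UGT genes were higher and 13 lower. Of all genes tested, 7.24% and 4.63% were. DESeq2 called 8 P450 genes higher and 2 lower, and 6 UGT genes higher and 4 lower. Neither family rose as a whole, with medians of -0.00085 and -0.12 on the log2 scale against -0.03 for all genes. The UGT gene ugt-19 (WBGene00019515, chromosome IV, 6076686 to 6079952 in WBcel235) had the lowest p of all genes and measured 15.2, 17.0 and 16.0 CPM on EV and 75.4, 60.8 and 64.9 CPM on cco-1 RNAi. Every cco-1 library was at least 60.8 CPM and no EV library was above 17.0 CPM (log2 fold change 2.06, standard error 0.14, edgeR adjusted p = 7.53e-05, 6 of 6), and the change in N2 was 2.59. Its relative ugt-62 measured 85.0, 128 and 138 CPM on EV and 653, 383 and 369 CPM on cco-1 RNAi. Replicate 1 on cco-1 RNAi was the highest (log2 fold change 2.00, standard error 0.24, edgeR adjusted p = 0.00387, 6 of 6).

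Among the P450 genes, cyp-33C8 on chromosome V measured 10.4, 14.9 and 15.0 CPM on EV and 151, 74.8 and 77.3 CPM on cco-1 RNAi. No library of the 2 groups came close to the other, and replicate 1 on cco-1 RNAi was the highest here too (log2 fold change 2.91, standard error 0.29, edgeR adjusted p = 0.00129, 6 of 6). The cyp-14A4 gene, which overlaps another annotated gene on the opposite strand, measured 1.05, 2.56 and 3.43 CPM on EV and 46.8, 21.8 and 22.5 CPM on cco-1 RNAi. It had the largest increase of the P450 genes (log2 fold change 3.68, standard error 0.50, edgeR adjusted p = 0.00687, 5 of 6), and in N2 it was 4.95. The neighbours of these genes in the family, cyp-14A1, cyp-13A12 and cyp-33C9, rose by 1.94, 1.57 and 0.91 on the log2 scale, and ugt-61, ugt-2 and ugt-12 by 1.79, 1.50 and 1.21, each from 0 to 4 of 6. The 2 genes that fell were cyp-35A2, at 67.4, 63.9 and 74.0 CPM on EV and 35.7, 39.5 and 34.0 CPM on cco-1 RNAi (log2 fold change -0.91, standard error 0.15, edgeR adjusted p = 0.0185, 1 of 6), and ugt-30, at 6.01 to 8.43 CPM on EV and 2.12 to 2.92 CPM on cco-1 RNAi (log2 fold change -1.43, standard error 0.24, edgeR adjusted p = 0.0187, 1 of 6). Of 41 glutathione S-transferase genes, gst-6 was the one that edgeR called, with 0.60, and DESeq2 called 2 higher.

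Single genes of transport and metal handling also rose. The P-glycoprotein gene pgp-9, which codes for an ABC transporter, measured 116, 77.7 and 73.6 CPM on EV and 321, 279.6 and 214 CPM on cco-1 RNAi (log2 fold change 1.61, standard error 0.31, edgeR adjusted p = 0.0324, 0 of 6). Of the 53 ABC transporter genes tested, haf-3 was the other one up-regulated (0.68), and pmp-5, of the peroxisomal membrane protein class, was down-regulated. The list had a median of -0.10 with 16 positive, against 45.8% positive of all genes tested. At an unadjusted p under 0.05, 3 were higher and 8 lower, where the shares of all genes were 7.24% and 4.63%. The pmp-5 transcript measured 183, 218 and 222 CPM on EV and 80.7, 85.5 and 110.0 CPM on cco-1 RNAi and was lower in every cco-1 library than in any EV library (log2 fold change -1.18, standard error 0.15, edgeR adjusted p = 0.00578, 6 of 6). The cadmium-responsive genes cdr-4 and cdr-2 lie close together on chromosome V (12407366 to 12408625 and 12414656 to 12415709 in WBcel235). The level of cdr-4 was 63.0, 65.7 and 68.8 CPM on EV and 336, 219 and 253 CPM on cco-1 RNAi, and that of cdr-2 was 31.7, 39.4 and 37.7 CPM on EV and 158, 97.0 and 119 CPM on cco-1 RNAi. Both groups were well apart for both genes, and the changes held in every fit (log2 fold change 2.03, standard error 0.17, edgeR adjusted p = 0.000385, 6 of 6 for cdr-4, and log2 fold change 1.78, standard error 0.18, edgeR adjusted p = 0.00146, 6 of 6 for cdr-2). The heme-responsive gene hrg-2, whose product acts in heme use in the hypodermis, measured 5.33, 11.4 and 11.4 CPM on EV and 102, 64.8 and 49.8 CPM on cco-1 RNAi and had the largest change of the 21 iron, heme and metal genes tested (log2 fold change 2.94, standard error 0.48, edgeR adjusted p = 0.0186, 2 of 6). These 3 were the called genes of that list (4 higher and 1 lower with DESeq2), whose median was 0.39.

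Genes of innate immunity and of secreted or lysosomal proteins moved both ways. Among 116 C-type lectin genes, which code for sugar-binding proteins often linked to defence, 4 rose and 0 fell with edgeR (18 were higher and 11 lower at an unadjusted p under 0.05, and DESeq2 called 7 higher and 4 lower), and the family median was -0.09. Of all genes tested, 7.24% were higher and 4.63% lower at an unadjusted p under 0.05. The clec-17 transcript measured 2.48, 2.39 and 1.81 CPM on EV and 29.8, 16.2 and 17.0 CPM on cco-1 RNAi, with groups apart in each library (log2 fold change 3.24, standard error 0.30, edgeR adjusted p = 0.000815, 6 of 6). The others, clec-70, clec-4 and clec-265, rose by 2.49, 2.00 and 1.31 on the log2 scale. Of 34 lysozyme and saposin-like genes, lys-2 and spp-23 were up-regulated (0.95 and 0.80), and lys-4 and ilys-5 were down-regulated. The lysozyme gene ilys-5 measured 488, 544 and 535 CPM on EV and 145, 217 and 306 CPM on cco-1 RNAi (log2 fold change -1.23, standard error 0.26, edgeR adjusted p = 0.0463, 1 of 6), and lys-4 measured 221, 221 and 232 CPM on EV and 54.8, 97.4 and 122 CPM on cco-1 RNAi (log2 fold change -1.30, standard error 0.27, edgeR adjusted p = 0.0477, 0 of 6). Both were lowest in replicate 1 on cco-1 RNAi, and in N2 they changed by -2.32 and -1.94. The aspartyl protease gene asp-8 measured 73.8, 109 and 103 CPM on EV and 348, 288 and 291 CPM on cco-1 RNAi (log2 fold change 1.70, standard error 0.17, edgeR adjusted p = 0.00129, 6 of 6), and asp-7 and the cathepsin B-like gene cpr-8 rose with it, giving 3 of 22 genes of that list. The infection response gene irg-8 fell by 1.10 on the log2 scale, from 256 to 291 CPM to 92.3 to 156 CPM. The summed level of the intestine markers, given above, was also higher on cco-1 RNAi, and its part in the changes of the detoxification and lysosomal genes was not tested.

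**Figure D2:**
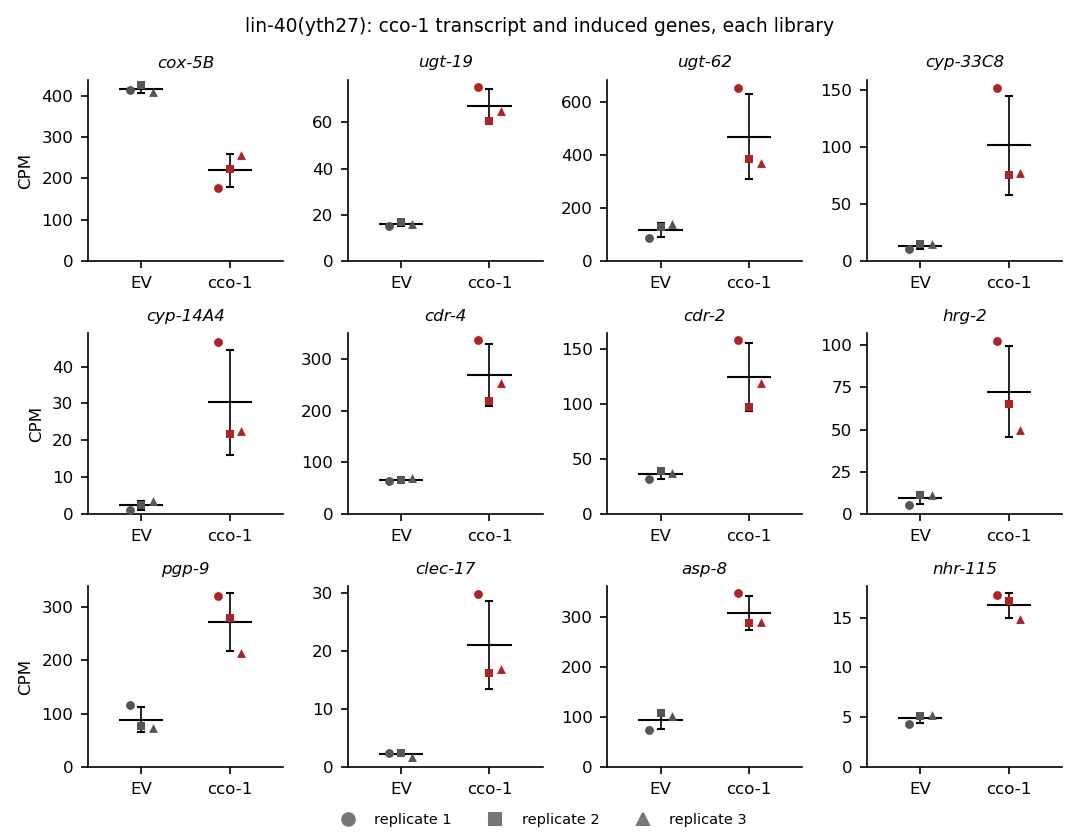
Levels in CPM of cox-5B and 11 up-regulated genes in each of the 3 EV (grey) and 3 cco-1 RNAi (red) libraries of lin-40(yth27), with the mean as a line and the SD as bars. The groups do not overlap in any panel, and replicate 1 on cco-1 RNAi is the lowest for cox-5B and the highest for all 11 induced genes.

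The largest increases belonged to genes with little or no signal on EV. F22B3.7 (WBGene00009038, chromosome IV) measured 0, 0.0839 and 0.232 CPM on EV and 20.7, 5.98 and 4.82 CPM on cco-1 RNAi (log2 fold change 6.53, standard error 0.82, edgeR adjusted p = 0.00449, 6 of 6). It was near 0 in all EV libraries and highest in replicate 1 on cco-1 RNAi. R144.11 and F28H6.8, named after their values were seen, had 0 counts in all 3 EV libraries and 16, 28 and 20 and 18, 15 and 19 counts on cco-1 RNAi. Set against 3 counts over the EV group, they were at least 22.9-fold and 18.6-fold higher. R144.11 was higher by 0.88 on the log2 scale in N2, without passing the test there (edgeR adjusted p = 0.347), and the difference between the genotypes did not pass for it either (interaction adjusted p = 0.388, edgeR). At higher levels, B0205.13 measured 7.91, 12.5 and 11.3 CPM on EV and 90.1, 63.3 and 88.0 CPM on cco-1 RNAi (log2 fold change 2.92, standard error 0.24, edgeR adjusted p = 0.000385, 6 of 6), and the claudin-like gene clc-11 measured 3.37, 1.85 and 1.53 CPM on EV and 17.1, 11.1 and 15.7 CPM on cco-1 RNAi (log2 fold change 2.70, standard error 0.34, edgeR adjusted p = 0.00449, 6 of 6). Both stayed apart from EV in every library.

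Replicate 1 on cco-1 RNAi was the highest of the 3 for 68 of the 123 up-regulated genes (55.3%) and the lowest for 28 of the 50 down-regulated genes (56.0%), against 39.9% and 34.8% of all genes tested. On EV, replicate 1 was the lowest for 78 of the 123 (63.4%, against 41.2% of all genes). It was the highest for 17 of the 50 (34.0%, against 41.4%). Of the other cco-1 libraries, replicate 2 was the highest for 4 of the 123 (3.25%, against 25.6% of all genes), and replicate 3 for 51 (41.5%, against 34.5%). The cco-1 transcript was lowest in replicate 1 and highest in replicate 3. The genes were chosen by these same libraries, and a part of the cco-1 level in these orders was not tested.

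The mitochondrial chaperones at the centre of the UPRmt did not pass with edgeR. The mitochondrial Hsp70 gene hsp-6 measured 793, 795 and 724 CPM on EV and 1019, 1143 and 1166 CPM on cco-1 RNAi, so that all cco-1 libraries lay above all EV libraries, with a log2 fold change of 0.53 (standard error 0.20, edgeR adjusted p = 0.324). The chaperonin gene hsp-60 measured 839.9, 884 and 858 CPM on EV and 884, 989 and 1099 CPM on cco-1 RNAi, with 0.20 (adjusted p = 0.666) and groups that overlapped by 1 library. The N2 values were 0.25 for hsp-6 and -0.25 for hsp-60. Of the 12 mitochondrial chaperone and protease genes, edgeR called 0 and DESeq2 3, 8 were higher at an unadjusted p under 0.05, 9 did not overlap, and all 12 had a positive fold change, with a median of 0.37 that was 0.38 without cco-1 replicate 3. Over all genes tested, 7.24% were higher at an unadjusted p under 0.05, 11.1% had all cco-1 libraries above EV and 45.8% were positive. The protease gene clpp-1 and the prohibitin gene phb-1 were the nearest to the threshold, at 0.46 (edgeR adjusted p = 0.0604) and 0.55 (adjusted p = 0.103), and both passed with the block in N2 (0.0467 and 0.0492). Of the 10 regulators of the response, 0 passed with edgeR or DESeq2, and zip-3, a bZIP factor gene at 0.53, was the one with an unadjusted p under 0.05 and passed with the block in N2 (adjusted p = 0.0485). The atfs-1 transcript measured 91.5, 80.4 and 86.2 CPM on EV and 82.7, 70.2 and 66.0 CPM on cco-1 RNAi, at -0.24, and dve-1 was at -0.01, with groups that overlapped for both.

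Among other mitochondrial genes, single members passed in several lists. COX1, a catalytic subunit of complex IV encoded in the mitochondrial genome (MtDNA 7827 to 9428), measured 2307, 2101 and 2140.3 CPM on EV and 4036, 4784 and 6662 CPM on cco-1 RNAi (log2 fold change 1.24, standard error 0.21, edgeR adjusted p = 0.0187, 2 of 6). The EV libraries lay close together, and each cco-1 library was well above them. It was the one gene that edgeR called of the 12 protein-coding genes of that genome, and DESeq2 called ND1, ND4, ND5 and COX3 as well. The median of the 12 was 0.57 with 11 of 12 positive, 0.32 without cco-1 replicate 3 and -0.33 in N2. COX1 itself was higher in N2 too, without overlap, at 0.76 (edgeR adjusted p = 0.0529). Mitochondrial protein-coding transcripts took 0.820 to 0.879% of all counts on EV and 1.20 to 1.48% on cco-1 RNAi in these poly(A)-selected libraries.

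Of the 18 genes of mitochondrial protein import, timm-23 and timm-17B.1, both parts of the translocase of the inner membrane, were up-regulated, 14 did not overlap and the median was 0.47 (0.38 without cco-1 replicate 3). For these 14 the cco-1 libraries lay above EV, against 11.1% of all genes tested. The timm-23 transcript measured 216, 211 and 205 CPM on EV and 346, 362 and 504 CPM on cco-1 RNAi (log2 fold change 0.94, standard error 0.16, edgeR adjusted p = 0.0187, 2 of 6). That of timm-17B.1 measured 177, 197 and 210.0 CPM on EV and 335, 301 and 377 CPM on cco-1 RNAi (log2 fold change 0.79, standard error 0.12, edgeR adjusted p = 0.0157, 2 of 6). In both, replicate 3 on cco-1 RNAi was the highest. The changes of 2 genes held in every fit: tsfm-1, which codes for the mitochondrial translation elongation factor Ts, and trx-2, the gene of the mitochondrial thioredoxin. The level of tsfm-1 was 57.2, 66.5 and 67.9 CPM on EV and 129, 109.9 and 126 CPM on cco-1 RNAi (log2 fold change 0.93, standard error 0.12, edgeR adjusted p = 0.00578, 6 of 6), and that of trx-2, which overlaps a gene on the other strand, was 23.5, 27.2 and 27.9 CPM on EV and 45.3, 42.4 and 48.1 CPM on cco-1 RNAi (log2 fold change 0.79, standard error 0.10, edgeR adjusted p = 0.00578, 6 of 6). Heme A synthase (cox-15, 0.70), which serves the assembly of complex IV, the ubiquinone synthesis gene coq-1 (0.69), the mitochondrial ribosomal proteins mrps-11 and mrps-14 (0.60 and 0.74) and the mitochondrial asparaginyl-tRNA synthetase nars-2 (0.64) also rose. So did cchl-1 (0.68), the cytochrome c heme lyase gene, romo-1 (0.80) and tspo-1 (0.69), which code for proteins of the inner and the outer mitochondrial membrane and which, like cchl-1, were picked out after their values were seen.

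Of the nuclear subunits of the respiratory chain, edgeR called cox-5B alone, and DESeq2 also called 1 gene of complex III higher. Of the 33 nuclear genes of complex I, 32 had a positive fold change and 22 did not overlap, with a median of 0.34 and 0.20 without cco-1 replicate 3. Over all genes tested, 45.8% were positive and 11.1% had all cco-1 libraries above EV, as these 22 had. Neither edgeR nor DESeq2 called any of the 33, while 23 were higher at an unadjusted p under 0.05, against 7.24% of all genes tested. The 7 nuclear genes of complex IV had a median of 0.42 (0.22 without cco-1 replicate 3), and cox-5B was the one of them that fell. The 33 genes of the tricarboxylic acid (TCA) cycle had a median of 0.25 with 31 positive and 0 called by either tool (8 at an unadjusted p under 0.05). Of the 83 cytosolic ribosomal proteins, 0 were called by either tool. At an unadjusted p under 0.05, 9 of them were higher, against 7.24% of all genes tested. Their shift, 0.38 with 81 positive, fell to 0.10 without cco-1 replicate 3. That of the 60 histone genes fell from 0.34 to 0.07. These 2 lists, of short genes, rested most on the library in which short genes were high, and the medians of mitochondrial chaperones, protein import and complex I moved less.

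Glycolysis held 4 up-regulated genes and 1 down-regulated gene among the 40 tested, with a median of 0.22. The aldolase gene aldo-1 measured 357, 351 and 326 CPM on EV and 636, 630.2 and 841 CPM on cco-1 RNAi (log2 fold change 1.03, standard error 0.17, edgeR adjusted p = 0.0193, 2 of 6), and the lactate dehydrogenase gene ldh-1 measured 128, 129 and 118 CPM on EV and 217, 210.5 and 277 CPM on cco-1 RNAi (log2 fold change 0.91, standard error 0.15, edgeR adjusted p = 0.0187, 2 of 6). In both, every cco-1 library lay far above the highest EV library. The glyceraldehyde-3-phosphate dehydrogenase gene gpd-2 rose by 0.90 (adjusted p = 0.0341), and its near-identical copy gpd-3 was at 0.74 (adjusted p = 0.0606, and 0.0157 with the block in N2), so that both are uncertain where reads were shared between them. The phosphoglycerate mutase gene ipgm-1 rose by 0.57, and alh-12, an aldehyde dehydrogenase gene, fell by 0.53. Without cco-1 replicate 3, none of the glycolysis genes passed with edgeR and the median was 0.14. The trehalase gene tre-2 fell by 0.63.

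The down-regulated genes included 3 of one-carbon metabolism and 1 of propionate breakdown. In the methionine cycle, methionine synthase (metr-1) uses vitamin B12 to make methionine, and its reductase (mtrr-1) keeps it active, while serine hydroxymethyltransferase (mel-32) feeds the folate pool. The metr-1 transcript measured 384, 339.6 and 315 CPM on EV and 178, 226 and 157 CPM on cco-1 RNAi (log2 fold change -0.89, standard error 0.16, edgeR adjusted p = 0.0271, 1 of 6). The mtrr-1 transcript measured 85.6, 86.9 and 84.6 CPM on EV and 57.2, 57.9 and 55.5 CPM on cco-1 RNAi (log2 fold change -0.59, standard error 0.09, edgeR adjusted p = 0.0122, 3 of 6). The groups were apart in both. That of mel-32 measured 442, 474 and 459 CPM on EV and 264, 309 and 306 CPM on cco-1 RNAi (log2 fold change -0.65, standard error 0.11, edgeR adjusted p = 0.0181, 2 of 6). These 3 were the called genes of 18 in the list, against 0.336% of all genes tested that were down-regulated. The median of the list was -0.27, and -0.73 in N2, where 9 fell (0 rose), against 4.08% of all genes there. The S-adenosylmethionine synthetase gene sams-1 measured 1019.8, 882 and 904 CPM on EV and 525, 882 and 892 CPM on cco-1 RNAi, with overlapping groups and -0.29 against -1.48 in N2 (interaction adjusted p = 0.394, edgeR).

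Of the 11 propionate breakdown genes, edgeR called acdh-1 alone and DESeq2 called 2, both lower. The list did not fall as a whole, with a median of -0.02 and 5 positive, against a median of -0.03 for all genes tested. The acdh-1 gene codes for an acyl-CoA dehydrogenase of the propionate shunt, which worms use when vitamin B12 is short. It measured 871, 1372 and 1352 CPM on EV and 655, 443 and 557 CPM on cco-1 RNAi (log2 fold change -1.12, standard error 0.22, edgeR adjusted p = 0.0324, 1 of 6). Its known activator gene nhr-68 fell by 0.55, from 35.5 to 39.1 CPM to 23.8 to 26.3 CPM (adjusted p = 0.0362), and nhr-114, a nuclear receptor gene known to act on the methionine cycle, fell by 0.76, from 66.5 to 84.2 to 42.1 to 48.0 CPM (adjusted p = 0.0187). Both receptor genes were picked out after their values were seen, and a link between their falls and those of the enzymes was not tested. Of 186 nuclear hormone receptor genes tested, 5 rose (2.69%) and 3 fell (1.61%), against 0.827% and 0.336% of all genes tested. Their median was 0.02, so the family did not move as a whole. The nhr-115 transcript measured 4.38, 5.16 and 5.19 CPM on EV and 17.2, 16.6 and 14.8 CPM on cco-1 RNAi and had the largest increase of them (log2 fold change 1.72, standard error 0.21, edgeR adjusted p = 0.00449, 6 of 6), and nhr-210, nhr-211, nhr-90 and nhr-132 rose by 1.48, 1.37, 1.05 and 0.79.

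Lipid genes contained the steepest fall of the called genes. The stearoyl-CoA desaturase gene fat-7, which makes oleic acid from stearic acid, measured 24.3, 25.6 and 33.2 CPM on EV and 0.176, 3.52 and 4.12 CPM on cco-1 RNAi (log2 fold change -3.43, standard error 0.65, edgeR adjusted p = 0.0302, 1 of 6). It was almost off in replicate 1 on cco-1 RNAi, and it passed in 1 of the 6 fits. The other fatty acid Δ9 desaturases, fat-6 and fat-5, measured 265, 259 and 277 CPM on EV and 161, 164 and 196 CPM on cco-1 RNAi for fat-6 and 23.5, 9.69 and 9.87 CPM on EV and 2.25, 5.10 and 5.51 CPM on cco-1 RNAi for fat-5, at -0.62 and -1.75 (adjusted p = 0.253 and 0.108, edgeR). The groups did not overlap for either, and both passed with the block in N2 (adjusted p = 0.031 and 0.0394). In N2 the changes were -6.41 for fat-7, -1.17 for fat-6 and -2.70 for fat-5. The lysosomal lipase gene lipl-2 measured 16.5, 9.40 and 9.73 CPM on EV and 3.44, 4.96 and 4.25 CPM on cco-1 RNAi (log2 fold change -1.49, standard error 0.28, edgeR adjusted p = 0.028, 0 of 6), and the 7 lipl genes tested had a median of -0.97 with 6 negative. The acyl-CoA synthetase genes acs-1 and acs-22 fell by 0.57 and 0.73, the asparagine synthetase gene asns-2 by 1.10 and the polyketide synthase gene pks-1 by 1.71. Of the unnamed genes, F54B11.11 and K08D8.3 fell by 2.05 and 1.47 and held in every fit.

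**Figure D3:**
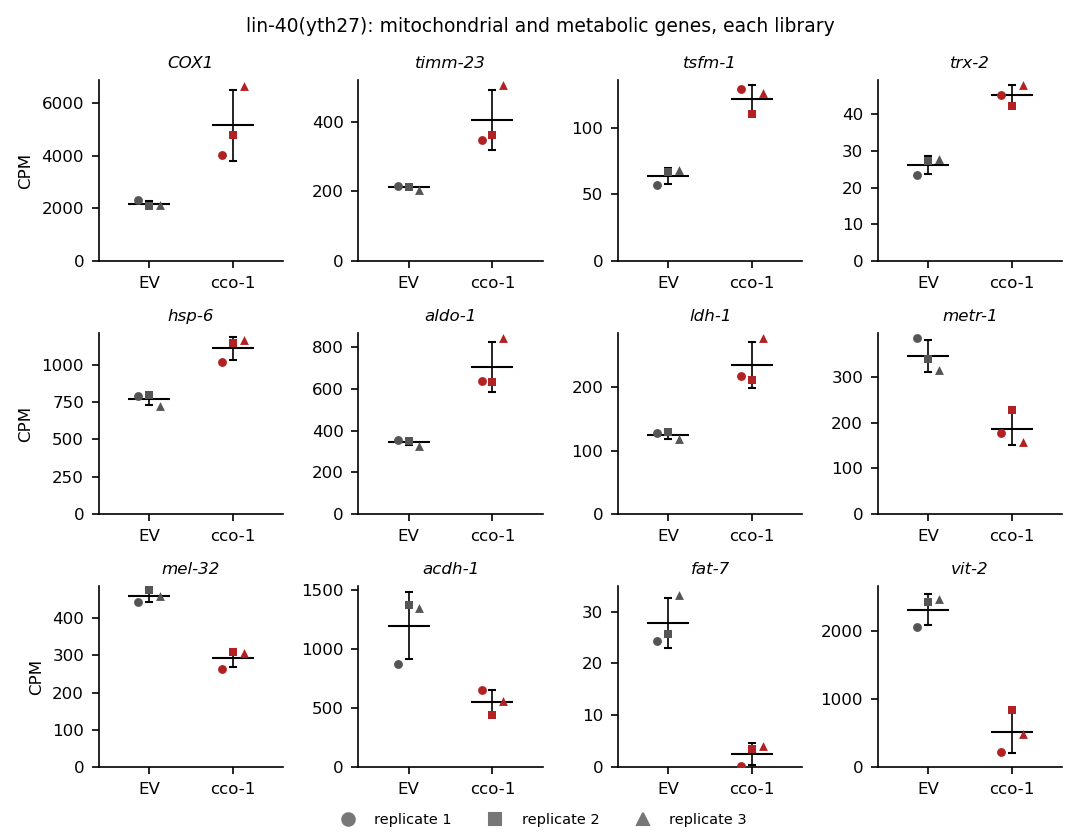
Levels in CPM of 12 mitochondrial and metabolic genes in each of the 3 EV (grey) and 3 cco-1 RNAi (red) libraries of lin-40(yth27), with the mean as a line and the SD as bars. All groups are apart, COX1, timm-23, aldo-1 and ldh-1 are highest in replicate 3 on cco-1 RNAi, and hsp-6 and vit-2 did not pass the test.

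The yolk protein genes had the lowest family median and a wide spread. Vitellogenins are made in the intestine for the oocytes of adults. The vit-2 transcript measured 2049, 2416 and 2461 CPM on EV and 228, 845 and 491 CPM on cco-1 RNAi. The log2 fold change was -2.15 (standard error 0.98, edgeR adjusted p = 0.417). All 6 vit genes were lower on cco-1 RNAi without overlap, at -2.07 for vit-6 to -3.96 for vit-3, and the list with the yolk receptor rme-2 had a median of -2.996 (-0.92 in N2). Over all genes tested, 9.71% had all cco-1 libraries below EV. The summed level of the list was 6339 to 9101 CPM on EV and 699 to 2352 CPM on cco-1 RNAi. In N2 it varied widely within each treatment, from 692 to 3973 CPM on EV and from 121 to 3705 CPM on cco-1 RNAi. Of these 7 genes edgeR called 0, DESeq2 called 3, and 6 were lower at an unadjusted p under 0.05, against 4.63% of all genes tested. The fit with the block in N2 called the 6 vit genes (adjusted p = 0.0381 for vit-2). The vit-3, vit-4 and vit-5 genes are near-identical, and their levels are uncertain where reads were shared. The adult collagen gene col-19 measured 336, 388 and 392 CPM on EV and 157, 252 and 229 CPM on cco-1 RNAi, also without overlap (-0.81, adjusted p = 0.802). The exact stage of the animals at collection beyond the label L4 was not tested. Of 148 cuticle collagen genes, edgeR called col-103 alone, with 0.86, and DESeq2 called 4 higher.

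Among the 90 neuropeptide genes of the flp and nlp classes, 45 did not overlap and 85 were positive, with a median of 0.47 and 0.31 without cco-1 replicate 3. Over all genes tested, 11.1% had all cco-1 libraries above EV and 45.8% were positive. Of the 90, edgeR called 0 and DESeq2 7, and 45 were higher at an unadjusted p under 0.05, against 7.24% of all genes tested. The 17 neuron markers had a median of 0.07. The 33 proteasome genes (-0.05) and the 19 genes of the endoplasmic reticulum unfolded protein response (-0.14, 0 positive) had negative medians, although that of the proteasome was 0.04 without cco-1 replicate 1, with 0 called by edgeR or DESeq2 and 1 and 3 genes at an unadjusted p under 0.05, all lower. The share of all genes tested that were lower at that threshold was 4.63%. Of the 28 cytosolic heat shock genes tested, hsp-17 alone rose (0.89), and the 9 subunits of the NuRD and MEC complexes had 0 called by either tool or at an unadjusted p under 0.05.

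**Figure D4:**
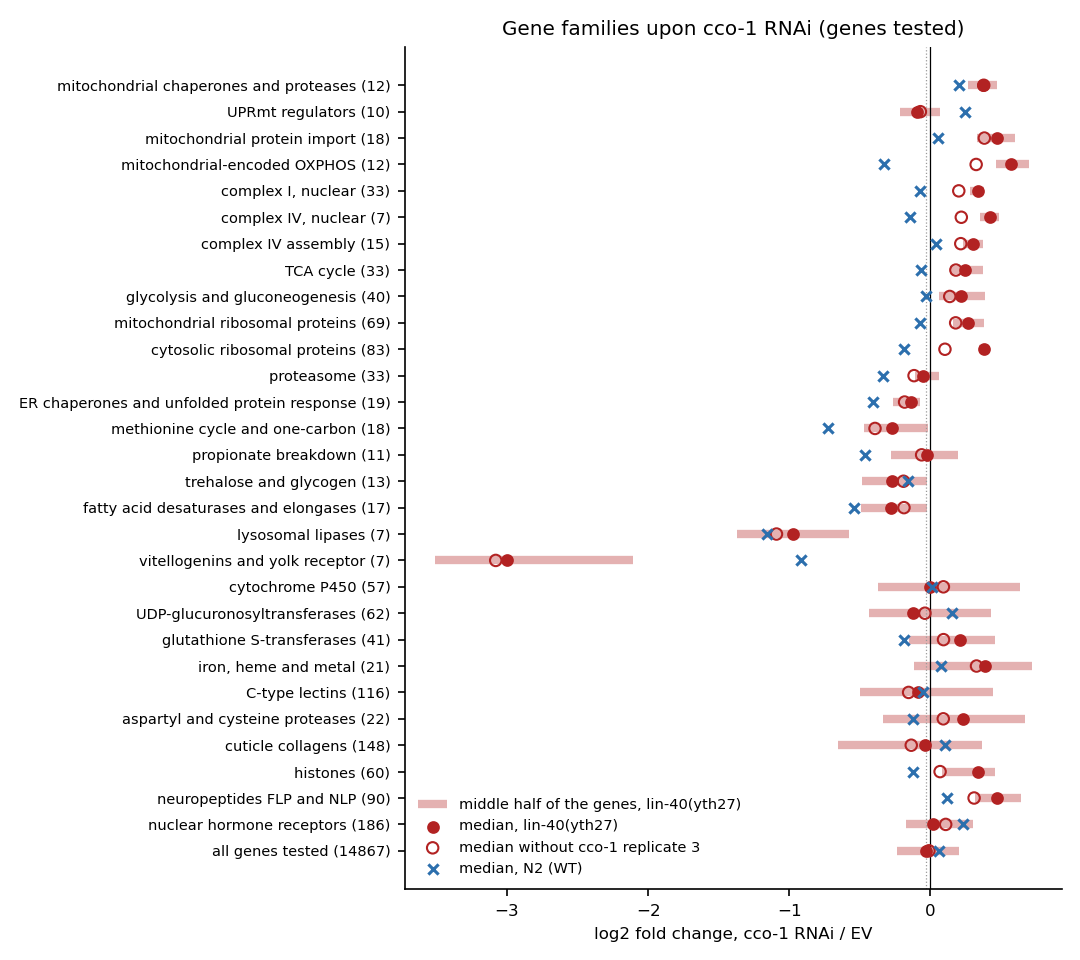
Median log2 fold change upon cco-1 RNAi of 29 gene lists and of all genes tested, in lin-40(yth27) (red, with the span between the quartiles), in lin-40(yth27) without cco-1 replicate 3 (open) and in N2 (crosses). Numbers of genes tested stand in parentheses. Ribosomal proteins and histones move towards 0 without that replicate, mitochondrial chaperones do not, and vitellogenins and lysosomal lipases are lowest.

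Set beside N2, where 323 genes rose (2.17%) and 606 fell (4.08%), all 123 genes up-regulated in lin-40(yth27) had a positive fold change and 87 were also called, and 48 of the 50 down-regulated genes had a negative one and 42 were called. The 2 exceptions were T22B7.7, at -2.08 in lin-40(yth27) and 0.52 in N2, and tre-2, at -0.63 and 0.09. The 36 up-regulated and 8 down-regulated genes not called in N2 include gpd-2, ldh-1, aldo-1, timm-23, COX1, romo-1 and lipl-2. Passing in 1 strain alone does not show a difference. The difference itself, tested as the interaction of genotype and RNAi, passed for 0 genes with edgeR (0.00%), where 1688 had an unadjusted p under 0.05 (11.4%), and for 55 with DESeq2 (0.387%). It passed for 7 genes in the fit with the replicate block in N2 alone, and for 1 and 1023 genes in fits with a replicate block in both strains, by title and by short-name number.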

How the data were processed

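Paired-end libraries of oligo(dT)-selected RNA of whole L4 worms were sequenced. The authors aligned the reads with TopHat and quantified genes with RSEM. The deposited values were taken as RSEM expected counts per gene without normalization, which is read from the values and not stated. The build they used is not given in the sources used here. Gene identifiers were looked up in Ensembl release 115 (WBcel235), and the labels do not say that strand was kept. No reference sequence was used.

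Expected counts of 46920 loci were rounded, filtered with filterByExpr, scaled by TMM and fitted with the edgeR 4.0.16 quasi-likelihood model (R 4.3.3) on all 12 libraries as 4 groups, with Benjamini-Hochberg adjustment over the 14867 genes kept, at 0.05. The common dispersion gave a coefficient of variation of 26.1%. A floor of 3 counts over the group was used for genes at 0, which covers counting error only. On simulated data of 14738 genes for this comparison, 38% of genes changed by 2-fold and 79% of those changed by 4-fold were recovered, and 3.31% of the calls were false. The simulated counts were drawn independently between libraries. They held no trend with exon length, no library standing apart and no correlated N2 libraries, so these shares may not hold for the measured data.

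The members, the 66 lists and the tests were chosen with earlier results of these data known. Genes were named by rule: cox-5B and lin-40, the 15 largest rises and 15 largest falls among called genes without overlap and with at least 5 CPM in the higher group, up to 4 called genes per list or the 2 most abundant where none was called, and a set of genes given by name. Others are said to be named after their values were seen where this matters, and no list was tested as a set. Alternatives were other scalings, filters, DESeq2 1.42.0, the 6 libraries alone, replicate blocks, a threshold of 0.01, each library left out, and, chosen after seeing the data, a correction for exon length with a spline of 4 degrees of freedom and a replicate block in N2 alone. The replicate numbers were taken to pair the N2 libraries, since all 3 correlations of same-numbered deviations were above 0.1, and not those of lin-40(yth27). That cut does not single out the pairs. In N2, EV replicate 2 with cco-1 replicate 3 was at 0.323, and EV replicate 3 with cco-1 replicate 2 at 0.193. Plots were made with matplotlib 3.10.9.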

Additional observations from a re-analysis of the deposited data

Results flagged for a closer look

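Among the 222 genes chosen to be named, 5 moved apart in opposite directions in the genotypes, with all 3 cco-1 libraries above EV in lin-40(yth27) and all 3 below EV in N2. The share of all genes tested with this pattern was not counted. The first 4 below are encoded in the mitochondrial genome, whose 12 protein-coding genes were all chosen by name. ND1, a subunit of complex I, was at 0.60 in lin-40(yth27) and -0.30 in N2 on the log2 scale (interaction adjusted p = 0.394, edgeR). ND2, another subunit of complex I, was at 0.60 in lin-40(yth27) and -0.40 in N2 on the log2 scale (interaction adjusted p = 0.394, edgeR). CYTB, cytochrome b of complex III, was at 0.54 in lin-40(yth27) and -0.54 in N2 on the log2 scale (interaction adjusted p = 0.394, edgeR). ATP6, a subunit of complex V, was at 0.55 in lin-40(yth27) and -0.36 in N2 on the log2 scale (interaction adjusted p = 0.394, edgeR). The neuropeptide gene nlp-40 was at 0.40 and -0.13 (interaction adjusted p = 0.401, edgeR). Without cco-1 replicate 3 the 5 changes in lin-40(yth27) were 0.40, 0.34, 0.28, 0.30 and 0.28 in the same order.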

How the results depend on the processing

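No named gene reversed its direction with a call under any alternative. The number of genes changed in lin-40(yth27) was 173, and it was 99 with library totals (48 up), 391 with DESeq2 (269 up and 122 down) and 29 at a threshold of 0.01 (25 up and 4 down). The 6 lin-40(yth27) libraries fitted alone gave 104 down-regulated genes. With each of the 12 libraries left out in turn the number ran from 26 to 209 (22 to 145 up, 4 to 64 down). The cox-5B change ran from -1.04 to -0.77 in these fits, and its value of -0.92 did not pass at 0.01. In N2 the number of changed genes was 1427 with DESeq2, 276 at 0.01 and 292 to 1039 with a library left out. The interaction passed for 55 genes with DESeq2 and for 0 in every fit with a library left out. Other scalings and filters, and the removal of the trend with exon length, which was chosen after seeing the data, kept the total within 1.5 times.

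The replicate numbers do not pair the lin-40(yth27) libraries: the departures of EV and cco-1 libraries of one number from their group means correlated at -0.324, -0.192 and -0.113 by the number in the titles, and at 0.290 and -0.113 by the number in the short names. A replicate block by title number gave 158 up-regulated and 94 down-regulated genes and 1 gene for the interaction. A replicate block by short-name number gave 375 genes (221 up and 154 down), 2366 in N2 and 1023 for the interaction. In N2 same-numbered libraries correlated at 0.723, 0.588 and 0.288, and those of different number reached 0.323. A replicate block in N2 alone, added after seeing the data, gave 390 genes in lin-40(yth27) (227 up and 163 down), 1631 in N2 and 7 for the interaction. Of the genes chosen to be named, 20 passed in that fit and not without the block, among them the 6 vit genes, fat-5, fat-6, clpp-1 and phb-1.

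Whether depth limited the calls at low levels was not tested, and calls close to the threshold depended on single libraries.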

Other observations

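Some of the largest differences were in genes that edgeR did not call. The non-coding RNA F59D8.3 overlaps vit-4 on the other strand, and without strand its reads cannot be told apart from those of vit-4. It measured 6.96, 30.5 and 31.0 CPM on EV and 0.353, 1.11 and 1.52 CPM on cco-1 RNAi (log2 fold change -4.55, edgeR adjusted p = 0.0821), and ule-5, which codes for a protein of the uterine lumen, measured 12.7, 17.7 and 18.9 CPM on EV and 1.81, 2.41 and 2.47 CPM on cco-1 RNAi (-2.88, adjusted p = 0.261). ZK813.3 measured 7.38, 13.8 and 13.5 CPM on EV and 1.63, 1.71 and 1.58 CPM on cco-1 RNAi (-2.81, adjusted p = 0.305). The groups did not overlap for these 3 genes, which lie on the X chromosome like vit-1 to vit-5, and EV replicate 1 was the lowest of the EV libraries for all 3, as for the vitellogenins. All 3 passed in the fit with the replicate block in N2. They were picked out after their values were seen, and in N2 they were at -2.10, -0.81 and -0.75.

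In the other direction, the C-type lectin gene clec-45 measured 0.316, 0.881 and 0.834 CPM on EV and 5.73, 9.92 and 7.42 CPM on cco-1 RNAi (3.47, edgeR adjusted p = 0.127, and 0.00131 with the block in N2), a larger change than in any called lectin gene. Called genes at low level included pals-6 and pals-34, of a family known for its rise upon infection by intracellular pathogens, at 2.10 and 2.02, with 0.602 to 0.949 and 0.422 to 0.671 CPM on EV and 2.28 to 4.28 and 1.85 to 2.28 CPM on cco-1 RNAi. The ribonucleotide reductase gene rnr-2, needed for DNA synthesis, rose by 0.78 and in N2 by 1.03. The copper chaperone gene cuc-1 rose by 1.09, from 59.9 to 88.1 CPM to 121 to 224 CPM. The nspc-9, nspc-15 and nspc-16 genes rose by 0.75, 0.91 and 1.39, and as members of a family of near copies they are uncertain where reads were shared.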
